A study of Mus musculus with 9 samples.

Results

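The mouse mitochondrial genome encodes 37 genes, and all 37 had a row in the epidermal expression table, which held 36442 genes in all. They were taken as every row whose symbol starts with mt-, so no measured value entered the choice. By class they were 2 ribosomal RNAs, 13 mRNAs and 22 transfer RNAs. The series holds 9 RNA sequencing samples, of which 4 are keratinocytes sorted by flow cytometry from the epidermis of adult skin and the rest are regulatory T cells, not analysed here. The 4 epidermal libraries comprise 2 labelled Mi2 epidermis, which the column names mark as knock-out, and 2 labelled WT epidermis. Mi-2β is the ATPase of the NuRD chromatin remodelling complex and is encoded by Chd4. The labels do not give the allele, the promoter that drives the deletion, or whether the replicates of a group are different mice, so the p-values measure the spread between libraries, which may be technical. The labels name a NEXTflex kit and a stranded TruSeq mRNA kit without saying which kit made which library.

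Mitochondrial DNA is transcribed from both strands into long precursors that cover most of the circle. Transfer RNAs lie between most of the other genes, and their excision at each end frees the rRNAs and mRNAs, a scheme known as tRNA punctuation. The mRNAs encode core subunits of complexes I, III and IV of the respiratory chain and of ATP synthase, and the rRNAs and tRNAs serve the mitochondrial ribosome that translates them. Basal keratinocytes of the epidermis carry more mitochondria than the cornifying layers, which lose theirs.

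The tRNA rows carry the calls described further on, and 8 of their sequences are shown with the anticodon in capitals. They are GENCODE M21 sequences on GRCm38, matched to the table by gene ID, since the table itself has no coordinates. The first 4 rose in Mi2 epidermis, and they decode glutamine, cysteine, lysine and methionine.

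mt-Tq (chrM:3772-3842, minus strand): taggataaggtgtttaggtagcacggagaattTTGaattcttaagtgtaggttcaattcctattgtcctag

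mt-Tc (chrM:5192-5257, minus strand): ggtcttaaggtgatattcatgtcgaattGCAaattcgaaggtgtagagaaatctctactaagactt

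mt-Tk (chrM:7700-7764, plus strand): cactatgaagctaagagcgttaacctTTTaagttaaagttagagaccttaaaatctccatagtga

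mt-Tm (chrM:3845-3913, plus strand): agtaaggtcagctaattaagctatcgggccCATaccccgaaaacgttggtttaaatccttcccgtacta

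The other 4 decode glycine, histidine, serine and leucine. They were not called, and 3 of them lie end to end between mt-Nd4 and mt-Nd5.

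mt-Tg (chrM:9391-9458, plus strand): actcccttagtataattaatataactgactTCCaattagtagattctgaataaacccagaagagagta

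mt-Th (chrM:11546-11612, plus strand): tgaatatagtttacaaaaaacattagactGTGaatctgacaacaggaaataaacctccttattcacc

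mt-Ts2 (chrM:11613-11671, plus strand): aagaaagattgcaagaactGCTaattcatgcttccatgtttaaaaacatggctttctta

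mt-Tl2 (chrM:11671-11741, plus strand): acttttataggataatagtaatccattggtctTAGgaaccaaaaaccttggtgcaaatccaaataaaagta

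Genes of the mitochondrial genome also overlap, which limits what a row can show. The last 43 bases of mt-Atp8 are also the first bases of mt-Atp6 (chrM:7927-7969, plus strand). The stretch is shown because a read inside it belongs to both rows.

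Overlap of mt-Atp8 and mt-Atp6: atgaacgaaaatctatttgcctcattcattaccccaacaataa

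mt-Nd4l and mt-Nd4 share 7 bases (chrM:10167-10173), and mt-Nd5 shares 14 bases (chrM:13552-13565) with mt-Nd6 on the other strand. The minus-strand genes mt-Nd6, mt-Tq, mt-Ta, mt-Tn, mt-Tc, mt-Ty, mt-Ts1, mt-Te and mt-Tp lie within the plus-strand precursor read backwards. Whether reads were counted by strand is not given in the sources used here. Reads of either precursor therefore cannot be told apart in those rows, nor in plus-strand rows that the minus-strand precursor covers.

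The libraries held 7662946 and 5682391 reads over genes in Mi2 epidermis and 7002100 and 8913804 in WT epidermis, recovered from the deposited normalized reads. Chd4, the gene behind the group label, stood at 734 and 1207 normalized reads in Mi2 epidermis, against 1607 and 1942 in WT epidermis (log2 change −0.91, SE 0.27, limma adjusted p = 0.0456). The 2 Mi2 values lay below both WT values, and the lower one was that of replicate 1. Keratins were abundant in every library, and Krt5, a keratin of basal keratinocytes, stood at 165634 and 135266 normalized reads in Mi2 epidermis and at 125451 and 117800 in WT epidermis.

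Mi2 replicate 1 stood apart in these genes. The 37 genes took 29.7% and 15.5% of the reads in Mi2 epidermis, against 13.8% and 12.9% in WT epidermis. Both Mi2 shares were above both WT shares, but Mi2 replicate 2 lay closer to the WT libraries than to its own replicate. The means were 22.6% ± 10.03 in Mi2 epidermis and 13.3% ± 0.648 in WT epidermis (SD, n = 2 each), a difference of 9.31 percentage points (two-sided exact permutation p = 0.333). With 2 libraries a group, 0.333 is the smallest two-sided p that test can give. The difference was 2.21 points without Mi2 replicate 1. In bulk RNA, more cells of a type and more mitochondrial RNA per cell cannot be told apart.

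The share split unevenly by class. The rRNAs took 10.5% and 6.63% of reads in Mi2 epidermis, against 4.40% and 3.70% in WT epidermis, so both Mi2 libraries were higher. The mRNAs took 19.2% and 8.87% in Mi2 epidermis, against 9.35% and 9.12% in WT epidermis. By this share of reads, Mi2 replicate 2 was thus the lowest of the 4 libraries for mRNAs. The order depends on the measure, since in normalized reads it was above both WT libraries for 5 mRNAs and below both for 3. The tRNAs took 0.0654% (95% Wilson interval 0.0636% to 0.0672%) and 0.0344% (0.0329% to 0.0360%) in Mi2 epidermis. In WT epidermis they took 0.0294% (0.0281% to 0.0307%) and 0.0297% (0.0286% to 0.0309%), so their intervals lay below those of both Mi2 libraries. These intervals cover counting error alone, as the reads carried no molecular identifiers.

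**Figure D1:**
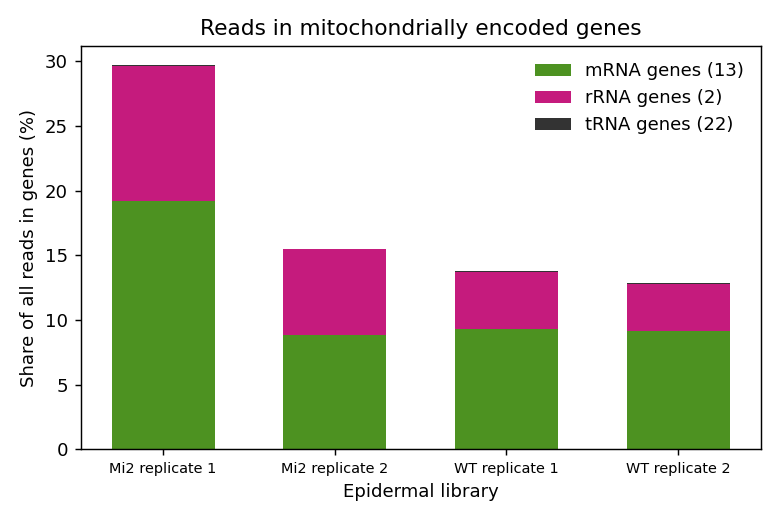
Percent of all reads in genes that fell in the 13 mRNA, 2 rRNA and 22 tRNA genes of the mitochondrial genome, stacked for each epidermal library (vertical axis, %). Mi2 replicate 1 reached 29.7% in all, while Mi2 replicate 2 at 15.5% differed from the WT libraries (13.8% and 12.9%) mainly in its rRNA part; the tRNA part, under 0.1%, is too thin to see.

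Each gene was compared between Mi2 and WT epidermis with limma on log2(normalized reads + 1), over all genes with a mean of at least 10. A gene was called when its Benjamini-Hochberg adjusted p over all 14461 tested genes was under 0.05. Of the 37 genes 34 were tested, and 3 tRNAs were below the minimum. Higher in Mi2 were 9 of the 34, and 0 were lower. Of all tested genes 28.2% were called, 15.1% as higher and 13.1% as lower. All 9 were tRNAs, out of 19 tested. No rRNA and no mRNA was called, and at an unadjusted limma p under 0.05 the counts were 0 rRNAs, 0 mRNAs and 11 tRNAs higher and 0 genes lower. Neither edgeR nor DESeq2 called a gene lower. edgeR on the recovered reads also called 0 rRNAs and 0 mRNAs beside 11 tRNAs, where 15.6% of all genes were called higher. DESeq2 called both rRNAs, 3 mRNAs (mt-Co1, mt-Co2 and mt-Cytb) and 9 tRNAs as higher, where 14.6% of all genes were. The median log2 change was 1.43 for the rRNAs, 0.70 for the mRNAs and 1.53 for the tested tRNAs, beside −0.03 over all tested genes. Without Mi2 replicate 1 the medians were 0.91, 0.03 and 1.22, and 7 tRNAs were called higher, 5 of them among the 9, where 11.6% of all genes were called higher and 12.1% lower. The number called higher was 19 without Mi2 replicate 2, where 18.9% of all genes were. It was 2 without WT replicate 1 and 1 without WT replicate 2, where 5.33% and 7% of all genes were.

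Both mitochondrial rRNAs were at a higher level in the 2 Mi2 libraries than in the 2 WT libraries, without passing the limma test. mt-Rnr1, the small-subunit 12S rRNA, stood at 422765 and 217904 normalized reads in Mi2 epidermis, against 146238 and 107871 in WT epidermis (log2 change 1.27, SE 0.68, limma adjusted p = 0.193). mt-Rnr2, the large-subunit 16S rRNA, stood at 640860 and 295025 in Mi2 epidermis, against 159201 and 131683 in WT epidermis (log2 change 1.59, SE 0.74, limma adjusted p = 0.146). For both rRNAs the groups did not overlap, and the gap between the Mi2 libraries was larger than that between Mi2 replicate 2 and WT replicate 1. Against the WT mean, mt-Rnr2 was 4.41-fold in Mi2 replicate 1 and 2.03-fold in Mi2 replicate 2, and mt-Rnr1 was 3.33-fold and 1.72-fold.

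Complex I, the NADH dehydrogenase that feeds electrons into the chain, has 7 subunits encoded here. mt-Nd1, a core membrane subunit, stood at 366824 and 91491 normalized reads in Mi2 epidermis, against 68981 and 63459 in WT epidermis (log2 change 1.47, SE 0.73, limma adjusted p = 0.170). Its groups did not overlap, and its value in Mi2 replicate 1 was 5.54-fold the WT mean, the highest of the 13 mRNAs in that library. mt-Nd2 stood at 116648 and 31237 in Mi2 epidermis, against 41814 and 36853 in WT epidermis. mt-Nd3 stood at 10500 and 2562 in Mi2 epidermis, against 3706 and 2998 in WT epidermis. In both genes the Mi2 libraries lay on either side of the WT pair.

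The remaining complex I mRNAs showed the same arrangement of high Mi2 replicate 1 and Mi2 replicate 2 near WT. mt-Nd4l stood at 20938 and 7499 normalized reads in Mi2 epidermis and 8268 and 7130 in WT epidermis. mt-Nd4, which overlaps it, stood at 128408 and 50473 in Mi2 epidermis and 56308 and 49644 in WT epidermis. mt-Nd5 stood at 100461 and 50180 in Mi2 epidermis and 52743 and 45532 in WT epidermis. In these 3 genes Mi2 replicate 2 fell between the WT values. mt-Nd6, the only mRNA on the minus strand, stood at 42202 and 21359 in Mi2 epidermis and 23519 and 20891 in WT epidermis, with Mi2 replicate 2 again between the WT libraries.

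mt-Cytb encodes cytochrome b, the one subunit of complex III made in mitochondria. It stood at 246103 and 82054 normalized reads in Mi2 epidermis, against 77352 and 70167 in WT epidermis (log2 change 0.95, SE 0.65, limma adjusted p = 0.303). The groups did not overlap, but Mi2 replicate 2 exceeded the higher WT library by less than that library exceeded the other.

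Complex IV, cytochrome c oxidase, has its catalytic core encoded by mt-Co1, mt-Co2 and mt-Co3. mt-Co1, which carries the haem and copper site of oxygen reduction, stood at 505944 and 185462 normalized reads in Mi2 epidermis, against 149756 and 142271 in WT epidermis (log2 change 1.07, SE 0.74, limma adjusted p = 0.309). mt-Co2 stood at 116010 and 39108 in Mi2 epidermis, against 35472 and 34148 in WT epidermis. mt-Co3 stood at 65967 and 28881 in Mi2 epidermis, against 34709 and 30684 in WT epidermis. The first 2 did not overlap between groups, whereas mt-Co3 was lower in Mi2 replicate 2 than in both WT libraries.

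ATP synthase has 2 membrane subunits encoded here, on overlapping mRNAs. mt-Atp8 stood at 50952 and 21085 normalized reads in Mi2 epidermis, against 20993 and 18991 in WT epidermis. mt-Atp6, part of the proton channel, stood at 180162 and 74977 in Mi2 epidermis, against 75818 and 67535 in WT epidermis. In both, Mi2 replicate 2 was 1.05 times the WT mean, while Mi2 replicate 1 was 2.55 times it for mt-Atp8 and 2.51 times for mt-Atp6.

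Taken by library, the 13 mRNAs were 1.90 to 5.54 times the WT mean in Mi2 replicate 1 (median 2.72) and 0.764 to 1.38 times in Mi2 replicate 2 (median 1.02). All 13 exceeded both WT values in Mi2 replicate 1, while in Mi2 replicate 2 there were 5 above both and 3 below both. Both Mi2 libraries were above both WT libraries for 21 of the 34 tested genes, which were 2 rRNAs, 5 mRNAs and 14 tRNAs. Of all tested genes 34.9% lay that way round. The reverse held for 1 of the 34, mt-Tg, and for 35.8% of all tested genes.

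Within the Mi2 group, all 13 mRNAs were higher in replicate 1 than in replicate 2, by a median log2 ratio of 1.45 (0.98 to 2.03). Between the WT replicates the median log2 ratio of the same mRNAs was 0.17. For nuclear-encoded genes the median absolute log2 ratio was 0.37 between the Mi2 libraries and 0.22 between the WT libraries. For these mRNAs the median gap between the Mi2 replicates, 1.45, exceeded the median change between the groups, 0.70. Across the 15 rRNAs and mRNAs, the fold over the WT mean in one Mi2 library and in the other had a Pearson r of 0.613 and a Spearman rho of 0.682, a description only, since both folds share the WT mean.

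**Figure D2:**
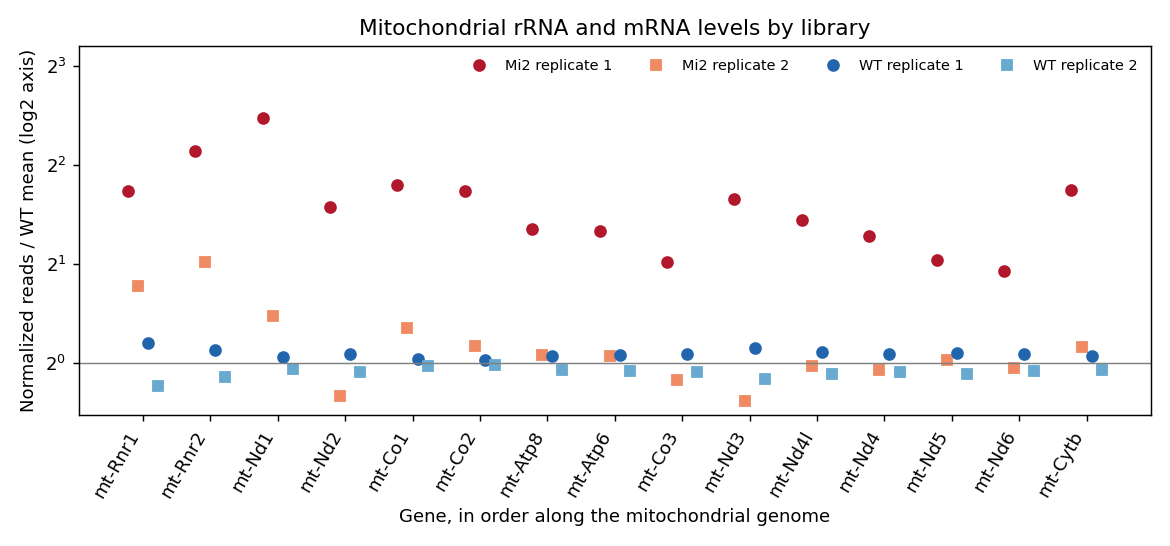
Normalized reads of the 2 rRNAs and 13 mRNAs in each library divided by the mean of the WT libraries (log2 axis), with genes in their order along the mitochondrial genome. Every gene is highest in Mi2 replicate 1 (1.90 to 5.54 times the WT mean), whereas Mi2 replicate 2 is 1.72 times or more only for mt-Rnr1 and mt-Rnr2 and lies near the WT libraries for the mRNAs.

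Levels of different genes were compared per kilobase of transcript. Among the 13 mRNAs, the level in normalized reads per kilobase had a median of 112378 and 41154 in Mi2 epidermis, against 45317 and 40252 in WT epidermis. mt-Nd3 had the lowest level in every library, at 30173 and 7363 per kilobase in Mi2 epidermis, against 10648 and 8615 in WT epidermis. mt-Atp6 was the highest mRNA in WT epidermis, at 111333 and 99170 per kilobase, with 264555 and 110099 in Mi2 epidermis. mt-Nd1 led in Mi2 replicate 1 with 383306 per kilobase, against 72081 and 66311 in WT epidermis, and mt-Co1 led in Mi2 replicate 2 with 120040, against 96930 and 92085 in WT epidermis. Thus the leading mRNA differed between the 2 Mi2 libraries as well as from WT.

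The tRNAs include the only mitochondrially encoded genes that passed the test. Their rows are short, between 59 and 75 bases, and most hold few reads. The 3 most abundant, mt-Ts1, mt-Te and mt-Tl1, took 75.9% and 66.2% of all tRNA signal in Mi2 epidermis, against 80.9% and 81.0% in WT epidermis. None of these 3 was called. The library protocol's retention of RNAs of this length is not given in the sources used here, so the rows cannot be read as levels of mature tRNA.

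The smallest p among the tRNAs was that of mt-Tq, which stood at 83.6 and 68.1 normalized reads in Mi2 epidermis, against 19.8 and 13.8 in WT epidermis (log2 change 2.12, SE 0.37, limma adjusted p = 0.00859). mt-Tc followed with 159 and 84.5 in Mi2 epidermis, against 28.8 and 26.1 in WT epidermis (log2 change 2.04, SE 0.38, limma adjusted p = 0.0103). Both Mi2 libraries were at least 3-fold above the WT mean in these 2 rows. mt-Tk had the largest change, with 143 and 24.5 in Mi2 epidermis, against 6.95 and 7.26 in WT epidermis (log2 change 2.91, SE 0.78, limma adjusted p = 0.0324). These rested on 108 and 18 reads in Mi2 epidermis and 7 and 10 in WT epidermis, and the Mi2 libraries differed 5.84-fold from each other. Both WT values of mt-Tk were under the minimum mean of 10, so the row was tested only through its Mi2 values.

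mt-Tt, the threonine tRNA, had the closest Mi2 replicates of the called rows, at 106 and 98.1 normalized reads in Mi2 epidermis, against 33.7 and 35.6 in WT epidermis (log2 change 1.53, SE 0.29, limma adjusted p = 0.0109). mt-Tm stood at 143 and 72.2 in Mi2 epidermis, against 33.7 and 24.0 in WT epidermis (log2 change 1.803). mt-Tw, the tryptophan tRNA, stood at 115 and 70.8 in Mi2 epidermis, against 23.8 and 27.6 in WT epidermis (log2 change 1.78). All 3 rows rose in both Mi2 libraries. The other called rows were mt-Ty (tyrosine), mt-Ti (isoleucine) and mt-Tp (proline), with log2 changes of 2.01, 1.61 and 1.503. Over the 9 called rows, Mi2 replicate 1 was 3.06 to 20.2 times and Mi2 replicate 2 was 1.73 to 4.05 times the WT mean.

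In 3 uncalled rows the Mi2 libraries were ordered the other way. mt-Th stood at 11.9 and 40.9 normalized reads in Mi2 epidermis, against 20.8 and 15.2 in WT epidermis. mt-Ts2 stood at 14.6 and 74.9 in Mi2 epidermis, against 21.8 and 21.1 in WT epidermis. mt-Tl2 stood at 29.2 and 74.9 in Mi2 epidermis, against 29.8 and 34.1 in WT epidermis. These are the adjacent rows shown by sequence above, and in each one Mi2 replicate 2 was the highest library while Mi2 replicate 1 was below both WT libraries. Without Mi2 replicate 1, mt-Ts2 and mt-Tl2 were called higher. mt-Tg was the only tested gene below WT in both Mi2 libraries, at 10.6 and 9.54 normalized reads in Mi2 epidermis, against 14.9 and 15.97 in WT epidermis (log2 change −0.57, limma adjusted p = 0.415), which is 8 and 7 reads in Mi2 epidermis and 15 and 22 in WT epidermis.

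By position, 6 of the 8 tested tRNAs between mt-Nd1 and mt-Co1 were called, with a median log2 change of 1.79. Of the 5 between mt-Co3 and mt-Nd5, 0 were called by limma, with a median of 0.54. None of those 5 was called by edgeR or DESeq2 either, nor did any have an unadjusted limma p under 0.05. They were not alike, as mt-Tg was below WT and mt-Tr above it in both Mi2 libraries. mt-Tr stood at 27.9 and 13.6 normalized reads in Mi2 epidermis, against 5.95 and 8.71 in WT epidermis (log2 change 1.32, limma adjusted p = 0.127). It reached the minimum mean of 10 only through its Mi2 values. Over all tested genes 15.1% were called higher. Both tRNAs that follow mt-Cytb were called. By strand, 5 of 11 on the plus strand and 4 of 8 on the minus strand were called. These groupings were made after the values had been seen and were not tested. The 3 tRNAs below the minimum stood at 14.6 to 22.6 normalized reads in Mi2 replicate 1, 4.09 to 10.9 in Mi2 replicate 2, and 1.45 to 3.97 in WT epidermis.

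**Figure D3:**
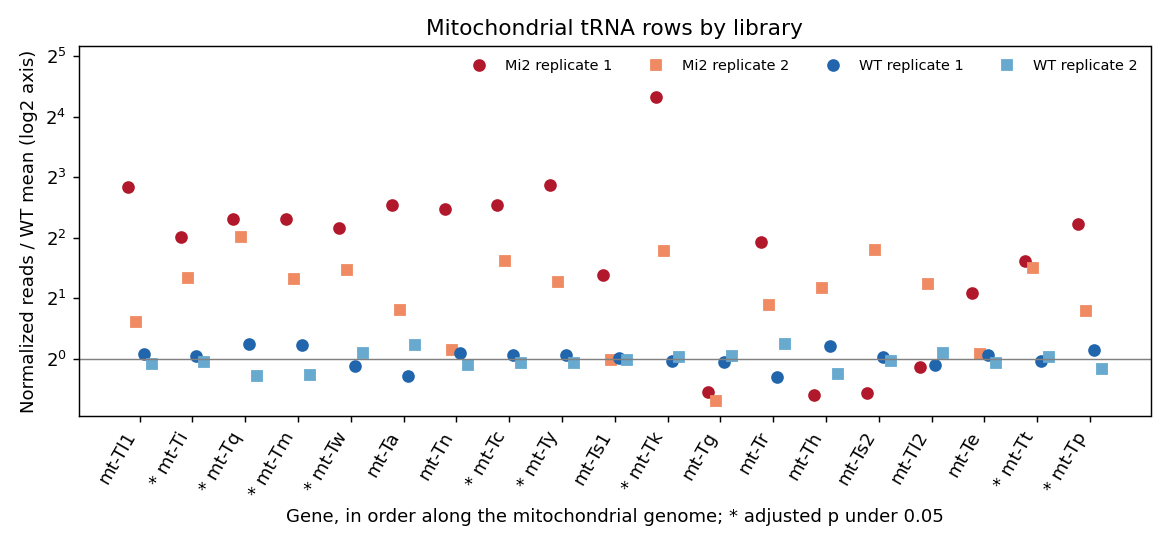
Normalized reads of the 19 tested tRNA rows in each library divided by the mean of the WT libraries (log2 axis), in genome order, with an asterisk at rows whose adjusted p was under 0.05. The 9 marked rows have both Mi2 libraries at 1.73 times the WT mean or more, while mt-Th, mt-Ts2 and mt-Tl2 are high in Mi2 replicate 2 alone.

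Whether the make-up of the mitochondrial transcripts changed was asked by scaling each library to an equal total over the 37 genes. Relative to that total, 0 of 34 genes were called by limma, where 11.2% of all tested genes were, and edgeR with that total as library size also called 0, where 6.42% of all genes were called. With either tool 1 of the 34 had an unadjusted p under 0.05, and by limma this was mt-Tk (relative log2 change 1.87, limma adjusted p = 0.172). Among the mRNAs 12 of 13 had a relative log2 change below 0, the exception being mt-Nd1 at 0.37, and among the tRNAs 13 of 19 were above 0. The scaling transfers the excess of Mi2 replicate 1 onto nuclear genes and widens their spread, which enters the error of this test. Without Mi2 replicate 1, mt-Tq, mt-Tc, mt-Ts2 and mt-Tt were called higher relative to the mitochondrial total, where 7.59% of all genes were. Without Mi2 replicate 2, 3 were called higher, where 3.25% of all genes were, and 5 lower, among them mt-Nd6, where 83.2% of all genes were.

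The rRNAs made up 35.2% and 42.7% of the mitochondrial total in Mi2 epidermis, against 31.9% and 28.8% in WT epidermis. The mRNAs made up 64.6% and 57.1% in Mi2 epidermis, against 67.9% and 71.0% in WT epidermis. The larger departure from WT was that of Mi2 replicate 2, the library whose total share was close to WT. The tRNA part was 0.220% and 0.222% in Mi2 epidermis, against 0.213% and 0.231% in WT epidermis, and the groups overlapped.

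Set against the 12 plus-strand mRNAs, the rRNAs had a ratio of 0.557 and 0.771 in Mi2 epidermis, against 0.488 and 0.421 in WT epidermis (log2 difference 0.53, two-sided exact permutation p = 0.333). The tRNA ratio was 0.00348 and 0.00401 in Mi2 epidermis, against 0.00326 and 0.00338 in WT epidermis (log2 difference 0.17, two-sided exact permutation p = 0.333). mt-Nd6, from the other strand, had a ratio of 0.0221 and 0.0321 in Mi2 epidermis, against 0.0376 and 0.0367 in WT epidermis (log2 difference −0.48, two-sided exact permutation p = 0.333). In all 3 ratios the groups did not overlap, and 0.333 is again the smallest p that 2 libraries a group allow.

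Pairs of transcripts that serve the same complex also had different ratios in the 2 groups. mt-Nd1 had 3.14 and 2.93 times the normalized reads of mt-Nd2 in Mi2 epidermis, against 1.65 and 1.72 times in WT epidermis. mt-Co1 had 7.67 and 6.42 times those of mt-Co3 in Mi2 epidermis, against 4.31 and 4.64 times in WT epidermis. Both pairs had Mi2 replicates closer to each other than to WT, unlike the mRNAs taken singly. mt-Nd1 to mt-Nd5 was 3.65 and 1.82 in Mi2 epidermis, against 1.31 and 1.39 in WT epidermis. mt-Rnr2 to mt-Rnr1 was 1.52 and 1.35 in Mi2 epidermis, against 1.09 and 1.22 in WT epidermis. The overlapping pair mt-Atp6 to mt-Atp8 stood at 3.54 and 3.56 in Mi2 epidermis and 3.61 and 3.56 in WT epidermis, so it varied little. These pairs were picked after their values had been seen and are descriptions with no test.

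**Figure D4:**
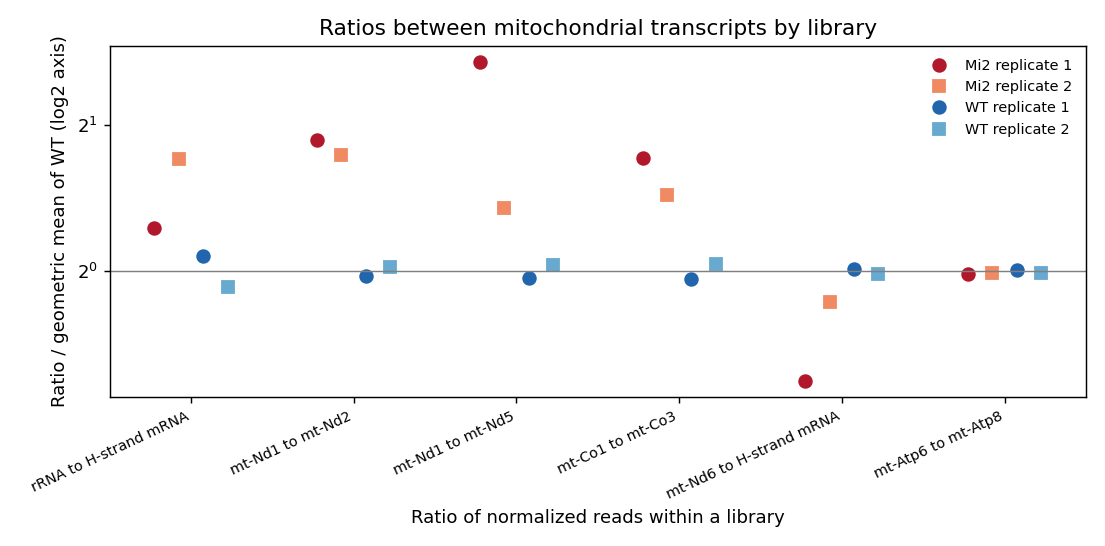
Ratios of normalized reads within each library, each divided by the geometric mean of that ratio in the WT libraries (log2 axis). Both Mi2 libraries lie above WT for mt-Nd1 to mt-Nd2 (3.14 and 2.93 in Mi2 epidermis, against 1.65 and 1.72 in WT epidermis) and mt-Co1 to mt-Co3, both lie below WT for mt-Nd6 to the other mRNAs, and mt-Atp6 to mt-Atp8 is alike in all 4 libraries.

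Annotated nuclear copies with reads in the epidermal table were found for 8 of the 13 mitochondrial mRNAs, and none for the rRNAs or the other 5 mRNAs. The tRNAs are shorter than the minimum searched. Copies absent from that table were left out, so the other 5 mRNAs and the rRNAs may have nuclear copies as well. The table holds 9 annotated nuclear genes that align to a mitochondrial mRNA over at least 100 bases at 90% identity or more. Gm10222 (chr1:24612407-24612700, minus strand) is identical to mt-Nd4l over 294 bases, and its row held 99.2% and 101% of the mt-Nd4l value in Mi2 epidermis, against 99.3% and 101% in WT epidermis. Gm10925 (chr1:24613974-24614651, minus strand), identical to mt-Atp6 over 678 bases and matched by symbol, held 112% of the mt-Atp6 value in all 4 libraries. Whether the same reads were entered in both rows is not given in the sources used here. Levels of mt-Nd4l, mt-Atp6 and their copies are therefore uncertain, and the library totals may count some reads more than once.

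Less alike copies took smaller and still nearly constant parts. Gm13340, a full-length copy of mt-Co1 at 97.6% identity, held 17.0% and 17.0% of the mt-Co1 value in Mi2 epidermis, against 16.2% and 16.1% in WT epidermis. Its first 100 bases differ from those of mt-Co1 (chrM:5328-5427, plus strand) at 3 places, in capitals in both lines. The copy lies at chr2:22589548-22589647 on the minus strand.

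mt-Co1: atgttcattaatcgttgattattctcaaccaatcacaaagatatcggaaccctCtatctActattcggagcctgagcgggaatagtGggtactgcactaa

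Gm13340: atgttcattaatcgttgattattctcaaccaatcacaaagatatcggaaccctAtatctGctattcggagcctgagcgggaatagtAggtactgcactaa

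Gm13341, a copy of mt-Co2 at 95.9% identity, held 27.1% and 27.8% of the mt-Co2 value in Mi2 epidermis, against 27.1% and 27.0% in WT epidermis. Gm13339, a partial copy of mt-Nd2, held 4.68% and 4.76% in Mi2 epidermis, against 4.52% and 4.62% in WT epidermis. Copies below 94% identity held at most 2.56% of their gene. The 9 copies together took 3.43% and 1.77% of reads in Mi2 epidermis, against 1.88% and 1.83% in WT epidermis, and 0 were called by limma, with 0 at an unadjusted p under 0.05. edgeR called 0 of them and DESeq2 called 2 higher. With the copies added, the mitochondrial share was 33.1% and 17.3% in Mi2 epidermis, against 15.7% and 14.7% in WT epidermis.

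**Figure D5:**
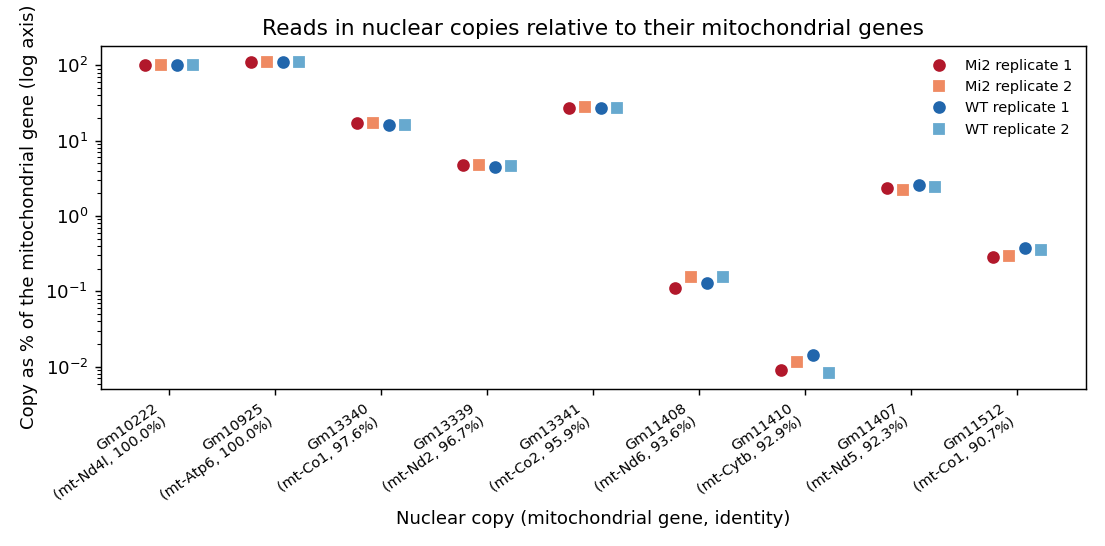
Value of each nuclear copy as a percent of its mitochondrial gene (log axis) in the 4 libraries, with copies ordered by identity. The 2 identical copies sit at 99.2% to 112%, the next 3 between 4.52% and 27.8%, and the rest lower, with little difference between libraries for any copy above 1%.

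Mitochondrial DNA is transcribed and replicated by proteins encoded in the nucleus. Of 17 genes for these proteins tested, 0 were higher and 4 lower (23.5%) by limma, beside 15.1% higher and 13.1% lower over all tested genes, with a median log2 change of −0.39. At an unadjusted limma p under 0.05 the counts were also 0 and 4, edgeR called 0 and 4, and DESeq2 called 0 and 2. Polrmt, the mitochondrial RNA polymerase, stood at 204 and 256 normalized reads in Mi2 epidermis and 236 and 216 in WT epidermis. Twnk, the replicative helicase, stood at 183 and 207 in Mi2 epidermis and 212 and 179 in WT epidermis. Polg, the catalytic subunit of the DNA polymerase, stood at 362 and 496 in Mi2 epidermis and 544 and 571 in WT epidermis. None of the 3 passed the test, and in Polrmt and Twnk the groups overlapped.

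The 4 genes that fell were Primpol, Mterf2, Mterf1a and Tfb1m. Primpol, a primase-polymerase that restarts stalled replication, stood at 30.5 and 44.95 normalized reads in Mi2 epidermis, against 148 and 134 in WT epidermis (log2 change −1.89, SE 0.31, limma adjusted p = 0.0068). Mterf2, of a family of mitochondrial transcription terminator-like proteins, stood at 2.65 and 2.72 in Mi2 epidermis, against 22.8 and 20.3 in WT epidermis. Mterf1a, of the same family, stood at 3.98 and 9.54 in Mi2 epidermis, against 24.8 and 28.3 in WT epidermis. Tfb1m, a methyltransferase of the 12S rRNA, stood at 15.9 and 12.3 in Mi2 epidermis, against 36.7 and 38.5 in WT epidermis. Mterf2 and Mterf1a were under the minimum mean of 10 in both Mi2 libraries, so they were tested only through their WT values. The groups did not overlap in any of the 4, which were named because they were called. Both Mi2 libraries were also below both WT libraries in 35.8% of all tested genes.

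Of 27 tested genes for processing and stability of mitochondrial RNA, 3 rose (11.1%) and 1 fell (3.7%), with a median log2 change of 0.04. Both shares were below the 15.1% and 13.1% over all tested genes. Elac2, the nuclease that cuts the 3′ end of tRNAs out of the precursors, stood at 410 and 287 normalized reads in Mi2 epidermis, against 126 and 163 in WT epidermis (log2 change 1.26, SE 0.26, limma adjusted p = 0.0148). Pde12, which removes adenosine tails from mitochondrial RNAs, stood at 456 and 320 in Mi2 epidermis, against 190 and 205 in WT epidermis. Tbrg4, of the FASTK family of mitochondrial RNA-binding proteins, stood at 694 and 444 in Mi2 epidermis, against 284 and 295 in WT epidermis. Mrm1, which methylates the 16S rRNA, fell to 27.9 and 46.3 in Mi2 epidermis, against 114 and 91.5 in WT epidermis. The 3 genes that rose were all higher in Mi2 replicate 1 than in replicate 2. Without replicate 1 fewer of the list were called, in a fit with 1 Mi2 library that also called fewer of all tested genes.

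Of 78 proteins of the mitochondrial ribosome, whose rRNAs are those above, 1 was higher (1.28%) and 2 were lower (2.56%), with a median log2 change of 0.13, where 15.1% and 13.1% of all tested genes were. Mrpl51 stood at 325 and 300 normalized reads in Mi2 epidermis, against 127 and 195 in WT epidermis. Mrpl23 fell to 23.9 and 13.6 in Mi2 epidermis, against 77.4 and 51.5 in WT epidermis, and Mrpl24 to 210 and 242 in Mi2 epidermis, against 396 and 383 in WT epidermis. Most of the list did not pass the test in either direction.

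Nuclear-encoded subunits of complexes I, III and IV and ATP synthase partner the mitochondrial mRNAs in the same enzymes. Of 71 tested, 6 were higher (8.45%) and 2 lower (2.82%), with a median log2 change of 0.11. These shares were also below the 15.1% and 13.1% over all tested genes. The sum of the list was 33065 and 28569 normalized reads in Mi2 epidermis, against 26432 and 22092 in WT epidermis. It differed by complex. For ATP synthase it was 16082 and 14219 in Mi2 epidermis, against 10514 and 9585 in WT epidermis. For complex I the groups overlapped, at 7532 and 6480 in Mi2 epidermis and 7479 and 6011 in WT epidermis. Complex IV also overlapped, and complex III did not. Atp5b, the catalytic β subunit of ATP synthase, stood at 6158 and 5471 in Mi2 epidermis, against 3399 and 3371 in WT epidermis (log2 change 0.78, SE 0.21, limma adjusted p = 0.0342). Cyc1, the cytochrome c1 of complex III, stood at 731 and 550 in Mi2 epidermis, against 341 and 332 in WT epidermis (log2 change 0.91, SE 0.21, limma adjusted p = 0.021). The nuclear genes of complex I had 0 of 36 higher and 1 lower by limma, with 2 and 3 at an unadjusted p under 0.05. edgeR called 0 and 1, and DESeq2 called 0 and 0. The lower one, Ndufa6, stood at 142 and 124 in Mi2 epidermis, against 246 and 221 in WT epidermis. Without Mi2 replicate 1 fewer of the 71 were called, in a fit with 1 Mi2 library that also called fewer of all tested genes.

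Regulators of mitochondrial biogenesis had 3 of 14 higher (21.4%) and 1 lower (7.14%), beside 15.1% and 13.1% over all tested genes. Without Mi2 replicate 1 the counts were 3 higher and 2 lower, where 11.6% and 12.1% of all genes were. Myc stood at 2191 and 1597 normalized reads in Mi2 epidermis, against 725 and 786 in WT epidermis (log2 change 1.31, SE 0.22, limma adjusted p = 0.0073). Ppard, a nuclear receptor of fatty acid metabolism, stood at 1284 and 711 in Mi2 epidermis, against 201 and 261 in WT epidermis. Ppargc1b, a coactivator of biogenesis genes, stood at 167 and 184 in Mi2 epidermis, against 79.4 and 110 in WT epidermis. All 3 rose, while Ppara, a related receptor, fell to 6.63 and 42.2 in Mi2 epidermis, against 246 and 230 in WT epidermis.

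Of 11 tested genes listed for the mitochondrial stress response, 7 were higher (63.6%) and 1 lower (9.09%), with a median log2 change of 0.83. Over all tested genes the shares were 15.1% and 13.1%. The 7 were Lonp1, Hspd1, Hspa9, Atf4, Atf5, Trib3 and Asns. Hspe1, Clpp and Atf3 were not called, with log2 changes of 0.33, 0.34 and −1.63 (limma adjusted p = 0.448, 0.385 and 0.105). Hspd1, the mitochondrial chaperonin HSP60, stood at 1152 and 891 normalized reads in Mi2 epidermis, against 348 and 377 in WT epidermis (log2 change 1.48, SE 0.21, limma adjusted p = 0.0043). Atf5, a transcription factor of the mitochondrial unfolded protein response, stood at 1132 and 865 in Mi2 epidermis, against 218 and 234 in WT epidermis (log2 change 2.12, SE 0.21, limma adjusted p = 0.0014). Hspa9, the matrix HSP70, stood at 1969 and 1549 in Mi2 epidermis, against 653 and 817 in WT epidermis. Both Mi2 libraries were above both WT libraries in these genes. They were named for the smallest p of the list, which favours close replicates, so they give no contrast with the mitochondrial mRNAs. Ddit3, a factor of the endoplasmic reticulum stress response, fell to 23.9 and 49.0 in Mi2 epidermis, against 91.3 and 93.6 in WT epidermis. Without Mi2 replicate 1 the limma counts were 6 higher and 0 lower, with 7 and 1 at an unadjusted p under 0.05, where 11.6% and 12.1% of all genes were called. Of 11 mitophagy and dynamics genes 1 was higher (9.09%), the autophagy receptor Sqstm1, and 2 were lower (18.2%), the mitophagy receptors Bnip3 and Fundc1. Over all tested genes 15.1% were higher and 13.1% lower. Bnip3l was not called and had a change in the other direction (log2 change 0.48, limma adjusted p = 0.0944).

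Summed markers of T lymphocytes and of fibroblasts differed between the groups, nearly all through Thy1 and through Sparc, and not through the other markers of those cells. The summed T lymphocyte markers were 1631 and 816 normalized reads in Mi2 epidermis, against 277 and 160 in WT epidermis, in the same order of libraries as the mitochondrial share. Nearly all of this was Thy1, at 1631 and 812 in Mi2 epidermis, against 265 and 151 in WT epidermis, whereas Cd3e stood at 0 and 2.72 in Mi2 epidermis, against 11.9 and 5.08 in WT epidermis, and Cd4, Cd8a and Trac were at 0 in every library. The summed fibroblast markers were 3022 and 1719 in Mi2 epidermis, against 773 and 436 in WT epidermis, of which Sparc made 2944 and 1711 in Mi2 epidermis, against 595 and 400 in WT epidermis. The other fibroblast defining genes were low, with Col1a1 at 18.6 and 4.09 in Mi2 epidermis, against 72.4 and 12.3 in WT epidermis. The part that these differences have in the mitochondrial values was not tested.

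Cells rich in mitochondria were looked for by their own markers. Summed skeletal muscle markers were 71.6 and 74.9 normalized reads in Mi2 epidermis, against 34.7 and 31.9 in WT epidermis. Acta1 stood at 50.4 and 44.95 in Mi2 epidermis and made the whole WT sum. The 5 other markers detected had reads in Mi2 epidermis only: Mb, the myoglobin gene, stood at 7.96 and 25.9 in Mi2 epidermis, against 0 in both WT libraries, and Tnnt3, Ckm and Myh1 in Mi2 replicate 1 and Actn3 in Mi2 replicate 2 stood between 1.33 and 9.29. Myh2 and Myh4 were at 0 in every library, and the part of muscle RNA in the mitochondrial values was not tested. Adipocyte markers were at 0 in all libraries for 6 of 7 genes. Red cell markers had 4 of 5 tested genes lower (80%), where 13.1% of all tested genes were. Their sums were 214 and 376 in Mi2 epidermis, against 858 and 2754 in WT epidermis. When Mi2 replicate 1 was left out, no red cell marker passed the limma test, in a fit with 1 Mi2 library that also called fewer of all tested genes lower. Langerhans and dendritic cell markers had 3 of 6 tested genes higher, Epcam, Cd74 and Mfge8, where 15.1% of all tested genes were. Cd207, the defining langerin gene, was below the minimum tested, and the groups overlapped, at 3.98 and 14.98 in Mi2 epidermis and 14.9 and 1.45 in WT epidermis. Cst3 stood at 853 and 970 in Mi2 epidermis, against 1604 and 1282 in WT epidermis (limma adjusted p = 0.0515), and was called lower by DESeq2. Melanocyte markers had 1 of 2 lower, Mitf, with Pmel not called (log2 change −0.23). Sebocyte markers had 1 of 2 higher, Mgst1, with Scd1 not called. Over all tested genes 13.1% were lower and 15.1% higher. Endothelial and mast cell markers summed to at most 3.63 and 5.45 normalized reads in any library.

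Keratinocyte markers had 2 of 8 lower (25%) and 0 higher by limma, beside 13.1% lower and 15.1% higher over all tested genes. At an unadjusted limma p under 0.05 the counts were 3 and 0. edgeR called 2 lower and 0 higher, beside 1857 lower and 2250 higher of all 14461 tested genes. DESeq2 called 2 lower and 2 higher, beside 1613 lower and 2118 higher of all tested genes. Krt15, a keratin of quiescent basal and hair follicle cells, stood at 4202 and 8781 normalized reads in Mi2 epidermis, against 49093 and 40508 in WT epidermis. Krt1, a keratin of differentiating layers, stood at 4503 and 8896 in Mi2 epidermis, against 21522 and 18749 in WT epidermis. Krt14, a basal keratin, stood at 79944 and 50895 in Mi2 epidermis, against 35020 and 32291 in WT epidermis (log2 change 0.92, SE 0.42, limma adjusted p = 0.136). Mi2 replicate 1 was the extreme library in each of these 3 genes, as it was for the mitochondrial share. Of 16 immediate early genes, which respond to tissue dissociation, 2 were higher and 2 lower (12.5% each, beside 15.1% and 13.1% over all tested genes), with sums of 17632 and 23367 in Mi2 epidermis, against 16802 and 20565 in WT epidermis. Without Mi2 replicate 1 more of the 16 were called, in a fit with 1 Mi2 library that called fewer of all tested genes.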

How the data were processed

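The deposited signal was a normalized read count per gene, made by the authors from whole reads and 1 scaling factor for each library. STAR, DESeq2 and bcl2fastq 1.8.3 are named per the submitters' processing notes, with builds mm9 and mm10 and no role for either. The program that counted reads, its strand setting and its treatment of reads with several alignments are stated in no source used here. Dividing each column by the value of 1 read gave whole numbers (within 0.05) for 100% of its values above 0, and these were taken as the reads. The deposited factors were 1.07 to 1.08 times median-of-ratios factors in every library. This scaling does not hold column totals equal, so a rise in abundant mitochondrial RNA does not lower the other rows.

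The main test was limma 3.58.1 with an intensity trend (R 4.3.3) on log2(value + 1), with no covariate, leaving out genes whose mean was under 10. p-values were two-sided and adjusted by Benjamini-Hochberg over all tested genes. Folds on this scale understate changes of low rows. Simulated data held 14430 genes with 200 changed, and every gene had the same dispersion of 0.05. On these the fit recovered 26% of 2-fold and 92% of 4-fold changes, with 5 false calls among 123. The rates do not carry over to the mitochondrial mRNAs, whose Mi2 libraries differed by a median log2 ratio of 1.45. edgeR 4.0.16 and DESeq2 1.42.0 on the recovered reads, other scalings, filters and pseudocounts, a replicate block and leaving out each library were alternatives. Equal totals of nuclear genes, edgeR on the mitochondrial total and shares with the nuclear copies added or removed were chosen after seeing the data. Single values per library were compared by exact permutation over 6 arrangements.

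The members, the pathway and marker lists and the tests were chosen with earlier results of these data known. Any mitochondrially encoded row with a mean of at least 10 could be named, and from each list up to 4 genes with the smallest p and the 3 most abundant. Some further list members were named to show what stood behind a count. Genes were matched by Ensembl ID to GENCODE M21 (GRCm38), and copies were found with blastn 2.17.0.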

Additional observations from a re-analysis of the deposited data

How the results depend on the processing

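Each library decided part of the result. Against 9 mitochondrially encoded genes called higher, the count ranged from 1 to 19 when one library was left out: 7 without Mi2 replicate 1, 19 without Mi2 replicate 2, 2 without WT replicate 1 and 1 without WT replicate 2. With an arm of 1 library, that library is assumed to vary like the rest, and over all genes the calls then numbered 3415, 5815, 1113 and 1441, beside 4085 with all libraries. The count was 4 with equal column totals, 14 with DESeq2, 5 with no filter and 5 with a mean of at least 50. It stayed within 1.5 times of 9 under the other scalings, edgeR, both pseudocounts, limma without trend (6) and the replicate block. No setting called a mitochondrially encoded gene lower in this comparison. Equal column totals moved the median log2 change of all genes to −0.44, equal nuclear totals to −0.27 and totals without the 50 most abundant genes to −0.16, where it was −0.03 as reported. Higher against lower calls over all genes were 997 against 2289, 1531 against 2744 and 1740 against 2101 under these, beside 2185 against 1900. Relative to the mitochondrial total, calls ranged from 0 to 4 higher and from 0 to 5 lower with one library left out. The share difference ranged from 2.21 to 16.4 points.

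With one library left out, the log2 change ranged from −0.33 to 1.57 for mt-Nd2, −0.38 to 1.66 for mt-Nd3, −0.18 to 1.02 for mt-Co3, −0.034 to 1.45 for mt-Nd4l, −0.067 to 1.28 for mt-Nd4, −0.0535 to 0.93 for mt-Nd6 and −0.0203 to 1.38 for mt-Ts1, each negative only without Mi2 replicate 1. It ranged from −0.54 to 1.15 for mt-Th, −0.52 to 1.76 for mt-Ts2 and −0.12 to 1.21 for mt-Tl2, each negative only without Mi2 replicate 2. mt-Th was also −0.0703 with equal column totals. The cause of these reversals was not tested.

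The replicate numbers are not stated to pair the samples. Deviations of same-numbered libraries correlated at 0.123 over 14461 genes, with only 2 pairs. With the replicate block 11 mitochondrially encoded genes were called higher, and 5170 genes in all. The block gave the same share difference of 9.31 points.

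Depth limits the tRNA rows most, since several held under 30 reads in a library.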
